A study of Mus musculus with 12 samples.

Results

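The DNA replication genes are 39 genes that encode the machinery copying the genome in S phase of the cell cycle. They were chosen by name, with earlier results of these data known. All 39 of 39 were among the 15322 genes of the deposited table. RNA had been sequenced from lumbar dorsal root ganglia (L3 to L5), the clusters of sensory neuron cell bodies and their glia beside the spinal cord, of wild-type mice at postnatal day 9. From postnatal day 2 until that age, dam and litter lived on limited bedding, which causes early life stress (stress), or on control bedding (control). There were 3 libraries of control females, 3 of control males, 3 of stress females and 3 of stress males, 12 in all. Litter, pooling of animals and strain are not in the labels. P-values therefore reflect variation among these 12 libraries only, part of which may be technical.

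DNA replication starts at origins marked by the origin recognition complex, where Cdc6 and Cdt1 load the ring-shaped MCM helicase in G1 phase. In S phase Cdc45 and the GINS complex turn the ring into an active helicase, primase and polymerases copy each strand, and the sliding clamp PCNA, loaded by replication factor C, holds the polymerases on the template. Ribonucleotide reductase and thymidylate synthase supply the deoxynucleotides, and chromatin assembly factor 1 places histones on the new DNA. Many of these genes are transcribed under E2F factors as cells leave G1. Sensory neurons of the ganglion no longer divide after birth, whereas glia, endothelial cells, immune cells and blood precursors can.

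Expression was compared as normalized counts, the authors' values scaled between libraries. Tests used log2(normalized count + 1) with limma, adjusted by Benjamini-Hochberg over 15194 genes with a value of at least 10 in at least 3 libraries, and a gene was called at an adjusted p under 0.05. All 39 members passed that filter. From the step between low values, depth was estimated at 16500000 to 27000000 reads in 11 libraries. In stress female replicate 2 no clear step was seen, and its depth is uncertain. The 10 sensory neuron markers were all detected and summed to 224334 to 273221 normalized counts per library.

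Over both sexes 16 of the 39 members rose with stress and none fell, where 12.8% of all tested genes were called higher and 13.4% lower (26.2% either way). The median log2 fold change was 0.26 over the members and 0.01 over all tested genes, and 36 members were above 0. In such bulk RNA, more dividing cells and more RNA of these genes per cell cannot be told apart. The largest rises were in Pole, Chaf1b and Tyms. The called rises ran from 1.11-fold in Rpa1 to 1.62-fold in Pole. Of 6 MCM helicase genes 5 rose, as did 3 of 4 genes of nucleotide supply, 3 of 7 of polymerases and primase and both chromatin assembly genes. Among the other roles 1 of 6 clamp and clamp loader genes, 1 of 5 helicase activation genes and 1 of 3 single-strand binding genes rose. None of the 4 origin licensing genes and neither gene of Okazaki fragment joining passed the test. In the authors' deposited table the same 16 members had an adjusted p under 0.05, each with a positive fold change, where 13.2% of its genes were listed as higher at that threshold.

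**Figure D1:**
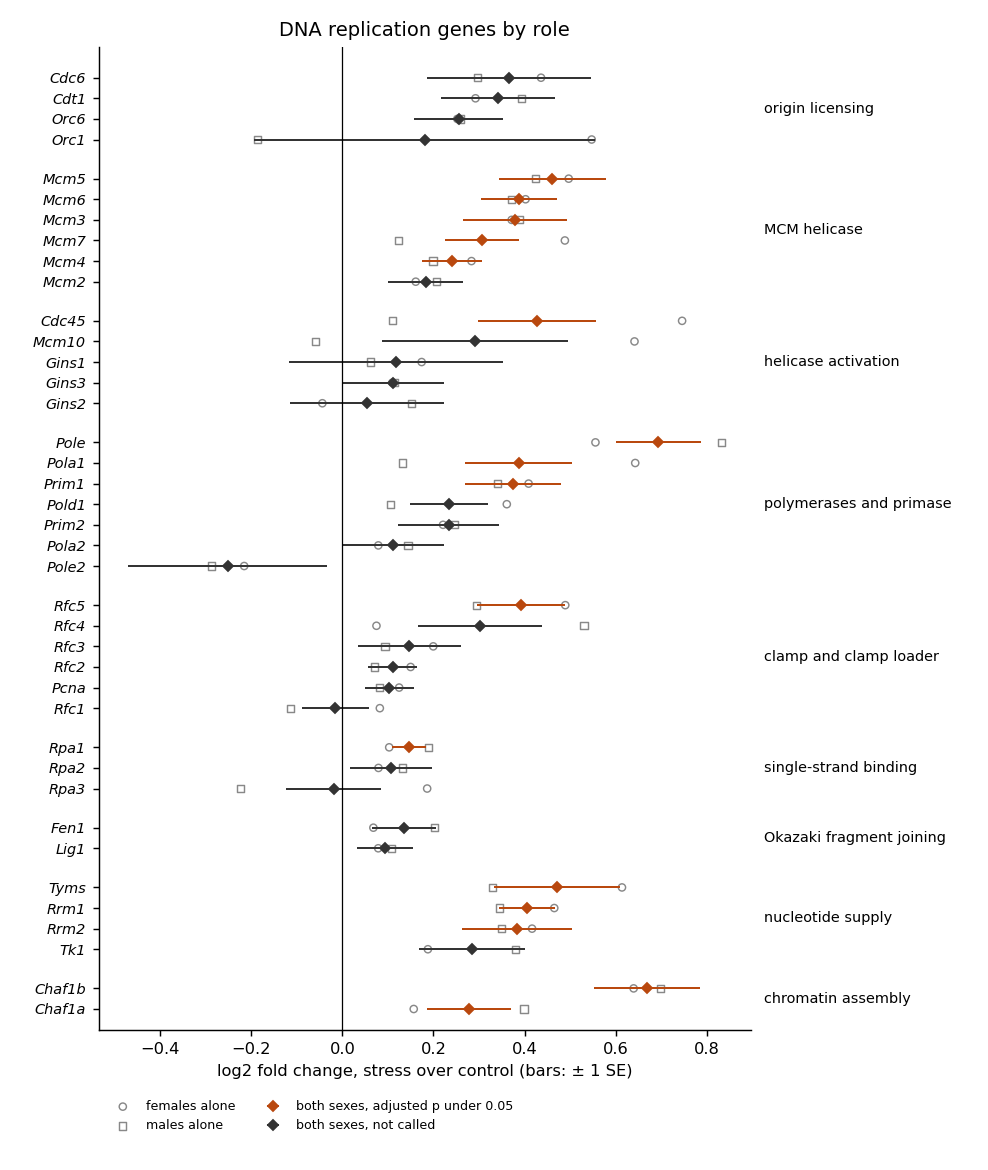
Log2 fold change of stress over control for each of the 39 members, grouped by role (filled diamonds with bars of ± 1 SE for both sexes, open circles for females and open squares for males). The 16 members called over both sexes are orange and lie to the right of 0, up to 0.69 in Pole, and Pole2, Rpa3 and Rfc1 lie left of 0 without a call.

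Promoter windows were searched for motifs known from cell cycle genes, none of which was found in every member. RefSeq promoter windows of 300 bases (250 before the start site and 50 after it, build GRCm38.p6) were given for 33 of the 39 members. Windows were searched on both strands for the E2F octamers TTTCCCGC, TTTCGCGC, TTTGCCGC and TTTGGCGC, for CCAAT (the box bound by NF-Y) and for the CHR element TTTGAA, known from promoters of mitosis genes. No motif contains another, and the only overlap between different motifs in the members' windows was an E2F octamer with a CCAAT box in Mcm7. E2F octamers overlapped each other in Mcm5 and Mcm6. An E2F octamer was found in 13 of 33 members (39.4%) against 4.35% of 11981 tested genes with a window and 2.60% of all 27025 genes with one. The octamers are rich in G and C, and the median GC content was 60% in the members' windows and 52.7% in all windows. The part of GC content in the octamer shares was not tested. A gene with several windows was counted once if any held the motif. CCAAT was found in 63.6% of members against 42.6% of tested genes, and CHR in 12.1% against 14.2%.

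Printed here are the windows of the member of lowest p in each role, where a window was given and held a motif, from 5′ to 3′ on the gene's strand, with matches in capitals. Pole had no window, and those of Rfc5 and Chaf1b held no match. Cdt1 (chr8:122567765-122568064, plus strand) and Mcm6 (chr1:128359656-128359955, minus strand) show E2F octamers. Rrm1 (chr7:102441445-102441744, plus strand), Rpa1 (chr11:75348334-75348633, minus strand) and Cdc45 (chr16:18811923-18812222, minus strand) show CCAAT boxes or their reverse complement ATTGG. Fen1 (chr19:10204344-10204643, minus strand) shows a reverse CHR element.
Cdt1: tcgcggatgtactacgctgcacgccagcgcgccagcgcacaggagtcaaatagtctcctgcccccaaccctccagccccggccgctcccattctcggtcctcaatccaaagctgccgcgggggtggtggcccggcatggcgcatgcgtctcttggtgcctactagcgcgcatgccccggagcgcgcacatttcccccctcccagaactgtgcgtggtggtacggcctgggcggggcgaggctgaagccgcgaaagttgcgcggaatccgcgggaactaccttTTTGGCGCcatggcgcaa
Mcm6: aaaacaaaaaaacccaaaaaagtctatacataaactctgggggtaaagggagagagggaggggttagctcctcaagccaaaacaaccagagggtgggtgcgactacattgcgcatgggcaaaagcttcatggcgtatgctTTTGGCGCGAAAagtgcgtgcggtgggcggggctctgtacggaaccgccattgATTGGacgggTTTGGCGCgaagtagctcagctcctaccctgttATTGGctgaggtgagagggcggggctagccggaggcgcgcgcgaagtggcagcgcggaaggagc
Rrm1: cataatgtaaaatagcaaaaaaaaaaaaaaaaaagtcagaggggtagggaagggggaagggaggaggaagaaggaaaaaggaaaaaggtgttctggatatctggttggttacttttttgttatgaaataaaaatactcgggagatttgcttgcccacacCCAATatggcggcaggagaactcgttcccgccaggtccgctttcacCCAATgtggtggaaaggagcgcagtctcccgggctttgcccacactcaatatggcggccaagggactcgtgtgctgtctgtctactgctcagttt
Rpa1: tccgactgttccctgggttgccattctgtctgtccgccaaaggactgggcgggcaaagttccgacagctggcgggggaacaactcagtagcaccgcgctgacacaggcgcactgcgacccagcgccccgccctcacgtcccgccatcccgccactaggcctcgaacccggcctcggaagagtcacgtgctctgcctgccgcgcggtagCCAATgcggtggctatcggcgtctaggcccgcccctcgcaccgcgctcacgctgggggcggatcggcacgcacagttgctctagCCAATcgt
Cdc45: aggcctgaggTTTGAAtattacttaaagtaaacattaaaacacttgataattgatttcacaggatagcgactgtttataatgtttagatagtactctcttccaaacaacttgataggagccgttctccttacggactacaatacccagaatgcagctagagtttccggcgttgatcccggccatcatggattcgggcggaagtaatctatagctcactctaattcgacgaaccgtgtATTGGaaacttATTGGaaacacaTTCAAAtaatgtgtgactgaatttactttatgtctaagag
Fen1: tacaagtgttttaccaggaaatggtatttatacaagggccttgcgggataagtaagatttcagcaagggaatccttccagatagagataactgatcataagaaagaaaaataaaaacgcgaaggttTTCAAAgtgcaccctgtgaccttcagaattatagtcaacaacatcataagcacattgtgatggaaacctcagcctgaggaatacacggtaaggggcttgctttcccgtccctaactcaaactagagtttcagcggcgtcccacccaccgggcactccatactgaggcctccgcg

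Counted from 1 at the start site, the Cdt1 octamer begins at base 33. In Mcm6 octamers begin at bases -110, -106 and -47, the first pair overlapping so that the capitals run together, and reverse CCAAT boxes begin at -57 and -14. Cdc45 has no E2F octamer, but CHR elements at -240 and 11 beside its CCAAT boxes at -13 and -2. Among the 14 called members with a window 5 held one (35.7%), and among the 19 not called 8 did (42.1%). The median log2 fold change was 0.31 for the 13 members with an octamer and 0.28 for the 20 without. A match is a run of letters and not evidence of binding in these ganglia.

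**Figure D2:**
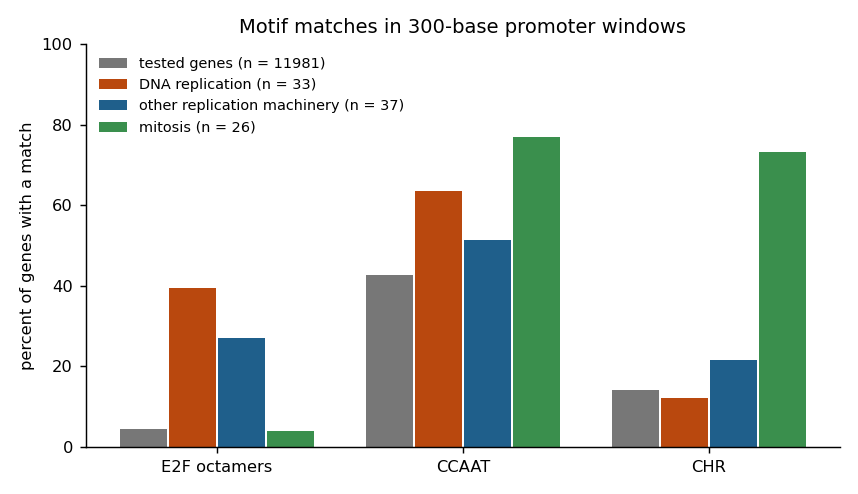
Percent of genes with at least 1 match in their 300-base promoter windows (y axis), for 3 motifs (x axis) and 4 sets of genes (colours). E2F octamers stand at 39.4% in DNA replication genes and 3.85% in mitosis genes, and CHR elements at 12.1% and 73.1%.

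Of the 4 origin licensing genes, which act first, none was called. Cdt1, which loads the helicase (chromosome 8, 122568015 to 122573554 in GENCODE M21), had the lowest p among them. Its normalized counts were 81.8, 125 and 99.99 in control females, 80.6, 83.9 and 89.3 in control males, 121, 136 and 115 in stress females and 114, 129 and 93.1 in stress males. The males did not overlap between treatments, but control female replicates 2 and 3 reached into the stress range. The log2 fold change was 0.34 ± 0.13 (SE, limma adjusted p = 0.0542), just short of a call. It was called without control female replicate 2 (adjusted p = 0.0268), without stress male replicate 3 (0.0322) and in an additive model of treatment and sex (0.0493). Cdc6 and Orc6 were at 0.37 ± 0.18 and 0.26 ± 0.10 (adjusted p of 0.149 and 0.0658). Orc1, the largest subunit of the origin recognition complex, was measured at only 4.50 to 14.8 normalized counts, and its log2 fold change of 0.18 had an SE of 0.38.

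Of the 6 MCM helicase genes all but Mcm2 rose. Mcm6, a subunit of the ring (chromosome 1, 128331590 to 128359664), had normalized counts of 563, 538 and 447 in control females and 586, 531 and 478 in control males. Stress females had 803, 671 and 581 and stress males 718, 714 and 631. Within each sex every stress library lay above every control library, and only stress female replicate 3 lay below a control library of the other sex. Mcm6 rose by 0.39 ± 0.08 (limma adjusted p = 0.00287), from 524 ± 52.3 to 686 ± 77.1 (SD, n = 6 each). Mcm5, Mcm3, Mcm7 and Mcm4 rose by 0.46, 0.38, 0.31 and 0.24. Mcm2 was at 0.18 ± 0.08 (adjusted p = 0.115) and was called only without control male replicate 1 (0.24, adjusted p = 0.0339). Mcm3 lost its call without control female replicate 2, control male replicate 3, stress female replicate 1 or stress male replicate 1 (adjusted p of 0.0540 to 0.0647). Per kilobase of exon, control means of these subunits ran from 49.2 normalized counts in Mcm2 to 138.5 in Mcm4, with Mcm6 at 112, Mcm7 at 64.1, Mcm3 at 54.0 and Mcm5 at 53.9. Mcm2, Mcm3, Mcm5 and Mcm7 had overlapping ranges over the 12 libraries. So had Mcm4 and Mcm6 (128.2 to 184.0 and 95.9 to 172.0), and Mcm7, at up to 96.9, reached into the Mcm6 range.

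Of the genes that activate the helicase, Cdc45 alone was called. Its normalized counts were 58.5, 58.8 and 62.3 in control females, 80.9, 87.2 and 85.6 in control males, 130, 96.2 and 82.4 in stress females and 102, 80.4 and 92.3 in stress males. Control females were the lowest group and did not overlap with any other, whereas control and stress males overlapped. Over both sexes the log2 fold change was 0.43 ± 0.13 (limma adjusted p = 0.0227), and the call was lost without stress female replicate 1 (0.0679) or stress male replicate 1 (0.0529). Mcm10, which stabilises the helicase, was at 0.29 ± 0.20, and the GINS subunits Gins1, Gins2 and Gins3 at 0.12, 0.05 and 0.11, with no call. Gins1 and Gins2 changed sign when single libraries were left out.

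Among polymerases and primase, Pole, the catalytic subunit of leading strand polymerase epsilon (chromosome 5, 110286306 to 110337474), had the largest rise of all members. Its normalized counts were 178, 206 and 145 in control females and 174, 181 and 151 in control males. They were 270, 241 and 261 in stress females and 305, 321 and 275 in stress males. Every stress library lay above every control library. With a mean of 172 ± 22.1 under control and 279 ± 29.5 under stress bedding (SD, n = 6 each), Pole rose by 0.69 ± 0.09 (limma adjusted p = 5.65e-05). Pola1, the catalytic subunit of polymerase alpha, and Prim1, the catalytic primase subunit, rose by 0.39 ± 0.12 and 0.37 ± 0.11. The call of Pola1 was lost without any 1 of 5 libraries (control female replicate 2, control male replicates 1 and 2, stress female replicate 2 and stress male replicate 1, adjusted p of 0.0561 to 0.0660). Pold1 of polymerase delta was at 0.23 ± 0.09 (adjusted p = 0.0558).

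Pole2, the second subunit of the same polymerase epsilon, had the lowest fold change of the members. Its normalized counts were 39.005, 66.5 and 41.7 in control females, 28.2, 69.5 and 45.7 in control males, 32.9, 46.5 and 44.6 in stress females and 41.2, 35.4 and 33.4 in stress males. Every stress library lay within the control range. The log2 fold change was -0.25 ± 0.22 (limma adjusted p = 0.429) and was below 0 in both sexes. The difference between Pole and Pole2 was not tested. Pola2 and Prim2, the accessory subunits of polymerase alpha and primase, were at 0.11 ± 0.11 and 0.23 ± 0.11 without a call.

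In the clamp and its loader, Rfc5 was called and Pcna was not. Rfc5, a small loader subunit, had normalized counts of 137, 110 and 118 in control females, 158, 154 and 133 in control males, 182, 153 and 178 in stress females and 184, 193 and 168 in stress males. The sexes taken singly did not overlap between treatments, while stress female replicate 2 lay below the highest control male. Rfc5 rose by 0.39 ± 0.10 (limma adjusted p = 0.00688). Rfc1, the large subunit, had 1235, 1148 and 1200 in control females, 1117, 1173 and 1213 in control males, 1355, 1268 and 1175 in stress females and 1276, 871 and 1129 in stress males. Stress males spread widely, with replicate 2 below all control libraries, and the log2 fold change was -0.02 ± 0.07 (adjusted p = 0.902). It was above 0 without stress male replicate 2 (0.06) or stress female replicate 3 (0.01). Pcna was at 0.10 ± 0.05 (adjusted p = 0.176), Rfc2 and Rfc3 at 0.11 and 0.15, and Rfc4 at 0.30 ± 0.14 (adjusted p = 0.114). Pcna was the most abundant member per kilobase of exon, with a control mean of 450.3 normalized counts, next to Rpa1 with 445. These did not differ beyond their ranges over libraries of 428 to 543 and 429 to 514. Rfc1 followed at 196, and Cdc6, Mcm10 and Orc1 stood lowest at 5.64, 4.76 and 2.35. Pcna has named pseudogenes in GENCODE M21, as has Tyms, so reads could be split among copies.

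Replication protein A coats unpaired template strands. Rpa1, its large subunit, had 2513, 2395 and 2512 normalized counts in control females and 2441, 2530 and 2505 in control males. Stress females had 2760, 2698 and 2514 and stress males 2829, 2868 and 2826. Only stress female replicate 3 fell into the control range. The rise was the smallest of those called, 0.15 ± 0.04 (limma adjusted p = 0.00969), from 2483 ± 52.6 to 2749 ± 129.8 (SD, n = 6 each), in a gene with little spread between libraries. Rpa3, the small subunit, had 122, 142 and 123 in control females, 159, 138 and 150 in control males, 139, 160 and 142 in stress females and 153, 125 and 108 in stress males. The groups overlapped, at a log2 fold change of -0.02 ± 0.10 (adjusted p = 0.918), and its sign turned when single libraries were left out. Rpa2 was at 0.11 ± 0.09.

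For Okazaki fragment joining, Fen1, the flap nuclease, had 368, 342 and 382 normalized counts in control females, 374, 339 and 299.8 in control males, 371, 398 and 375 in stress females and 411, 397 and 356 in stress males. The treatments overlapped in both sexes. Fen1 was at 0.14 ± 0.07 and the ligase gene Lig1 at 0.09 ± 0.06 (limma adjusted p of 0.175 and 0.292).

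In nucleotide supply the lowest p was that of Rrm1, the large subunit of ribonucleotide reductase (chromosome 7, 102441695 to 102469771). Its normalized counts were 605, 577 and 586 in control females and 642, 624 and 622 in control males, against 894, 828.7 and 727 in stress females and 887, 796 and 725 in stress males. No stress library overlapped with a control library. Rrm1 went from 609 ± 24.6 to 809.8 ± 74.5 (SD, n = 6 each), a rise of 0.41 ± 0.06 (limma adjusted p = 0.000165). Its partner Rrm2, whose protein is made in S phase, rose by 0.38 ± 0.12 (adjusted p = 0.0282). That call was lost without any 1 of 5 libraries (control female replicate 3, control male replicates 2 and 3, stress female replicate 1 and stress male replicate 1, adjusted p of 0.0633 to 0.0809). Tyms, thymidylate synthase, had 94.2, 72.8 and 87.6 in control females, 105, 118 and 73.7 in control males, 129.6, 122 and 139 in stress females and 129, 96.7 and 146 in stress males. All but stress male replicate 2 lay above every control library. Tyms rose by 0.47 ± 0.14 (adjusted p = 0.0191), without a call when control female replicate 2 (0.0522) or stress male replicate 3 (0.0530) was left out. Tk1, the salvage kinase for thymidine, was at 0.28 ± 0.12 (adjusted p = 0.0848).

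Chromatin assembly factor 1 rose in both its measured subunits. Chaf1b (chromosome 16, 93883901 to 93906115) had 68.6, 73.3 and 63.7 normalized counts in control females and 73.4, 58.6 and 69.9 in control males. It had 117, 107 and 98.1 in stress females and 119, 113 and 97.4 in stress males. Every stress library lay above every control library. Chaf1b went from 67.9 ± 5.78 to 109 ± 9.33 (SD, n = 6 each), a rise of 0.67 ± 0.12 (limma adjusted p = 0.000527). Chaf1a, the large subunit, rose by 0.28 ± 0.09 (adjusted p = 0.0361). Its call was lost without any 1 of 5 libraries (control female replicate 2, control male replicates 1 and 2, stress female replicate 2 and stress male replicate 1, adjusted p of 0.0676 to 0.0949).

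**Figure D3:**
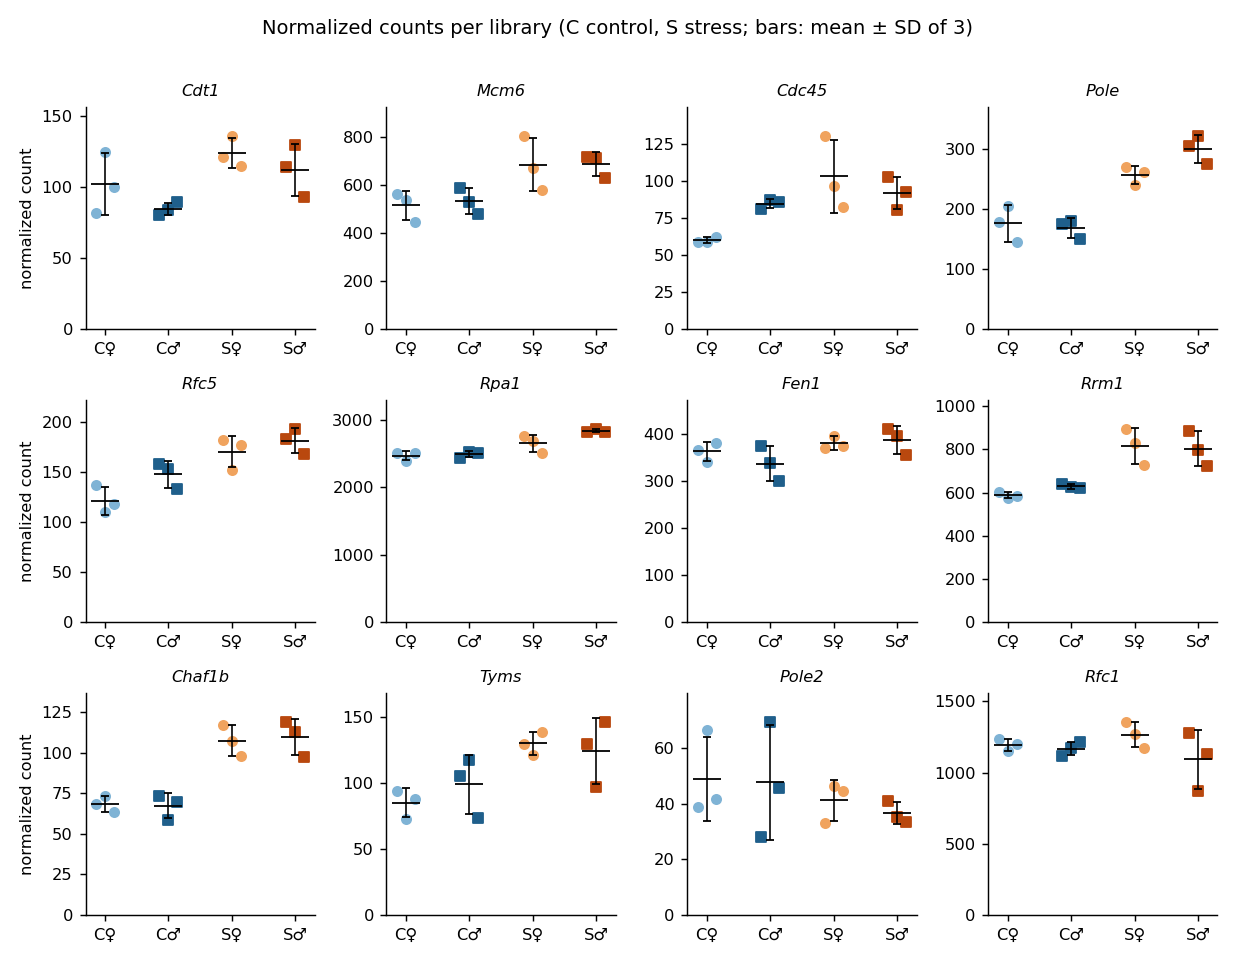
Normalized counts (y axes, from 0) of 12 members in each library of control females, control males, stress females and stress males, with black bars for the mean ± SD of 3. Every stress library lies above every control library in Pole, Rrm1 and Chaf1b, while the groups overlap in Pole2, Rfc1 and Fen1.

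Pole, Rrm1 and Chaf1b were the only members in which all 6 stress libraries exceeded all 6 control libraries. These 3 of 39 were near the share of all tested genes that did so, 5.21%. No member showed the reverse, for which the share of all genes was not counted. Of the 16 calls, 10 held whichever single library was left out (Mcm4, Mcm5, Mcm6, Mcm7, Prim1, Pole, Rfc5, Rpa1, Rrm1 and Chaf1b). The number of members called then ran from 11, without stress male replicate 1, to 18. Of the 39 members 17 overlap a gene on the opposite strand in GENCODE M21, among them the called Mcm7, Cdc45, Pola1, Pole, Rfc5 and Chaf1a. The libraries kept strand but the strand setting of the counting is not given in the sources used here, so reads of such pairs might be mixed. On the same strand, Cdt1 overlaps the protein-coding Gm20388, Pole2 the protein-coding Gm49384 and Pole the processed pseudogene Gm15791. Strand does not separate the reads of these pairs, and their part in the values was not tested.

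In females 8 members were called, all higher (20.5%, where 4.96% of all genes were called higher, 6.07% lower and 11.0% either way). In males 6 were called, all higher (15.4%, where 7.71% of all genes were called higher, 8.11% lower and 15.8% either way). Mcm6, Pole, Rrm1 and Chaf1b were called in both sexes. Females added Mcm7, Cdc45, Pola1 and Rfc5, and males Rpa1 and Chaf1a. The log2 fold change was above 0 in both sexes for 33 members. The female count was 4 without control female replicate 1, 2 or 3 and 2 without stress female replicate 1. The male count was 3 without control male replicate 2, stress male replicate 1 or stress male replicate 2. Every stress library lay above every control library for 16 members in females, where 14.8% of tested genes did so, and for 12 in males, where 16.4% did.

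By limma, the effect of stress differed between females and males in no member and in no gene at all (0.0% of 15194). At an unadjusted limma p under 0.05 stood 3 of 39 members and 1260 of 15194 genes, so the members did not exceed the share of all genes. The lowest p was that of Cdc45, with a log2 fold change of 0.75 ± 0.18 in females and 0.11 ± 0.18 in males. The male effect minus the female effect was -0.64 ± 0.26 (limma adjusted p = 0.569). Mcm7 and Pola1 followed, at 0.49 and 0.64 in females and 0.12 and 0.13 in males. Between males and females over both treatments no member was called either (0.0987% of all genes were, 0.0395% higher in males and 0.0592% lower). There 2 of 39 members and 1437 of 15194 genes had an unadjusted limma p under 0.05, again no larger a share in the members.

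As a score per library, the mean log2 deviation of the 39 members from each gene's own mean over the 12 libraries was taken, with no test. It was -0.09, -0.12 and -0.22 in control females and -0.05, -0.11 and -0.17 in control males. Stress females stood at 0.24, 0.18 and 0.04 and stress males at 0.23, 0.09 and -0.01. All stress libraries lay above all control libraries, but stress male replicate 3 was nearer to the control male replicate 1 than to the other stress males. Summed over members, normalized counts were 11833 to 12624 in control and 13174 to 15183 in stress.

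**Figure D4:**
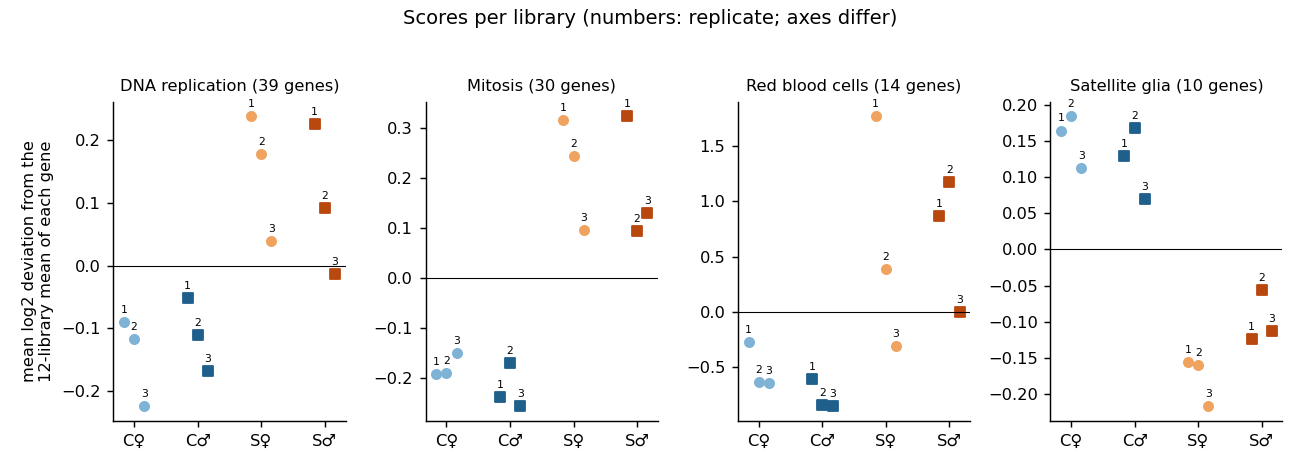
Mean log2 deviation from each gene's 12-library mean (y axes, which differ between panels) for 4 lists, with 1 point per library and the replicate number above it. The DNA replication score is -0.22 to -0.05 in control and -0.01 to 0.24 in stress, the red blood cell score spreads from -0.32 to 1.77 in stress, and the satellite glia score is lower in stress.

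Of 46 further replication genes 6 rose and 1 fell (13.0% higher), near the share of all genes, and their median was 0.12 on the log2 scale. The lowest p was that of Rnaseh2a, the catalytic subunit of the nuclease that removes ribonucleotides from DNA, which rose by 0.36 ± 0.07 (limma adjusted p = 0.00141), from 527 ± 29.8 to 681 ± 74.4 normalized counts. Dnmt1, which copies DNA methylation to the new strand, rose by 0.26 ± 0.06 (adjusted p = 0.00262), and Samhd1, which degrades deoxynucleotides, by 0.23 ± 0.06 (adjusted p = 0.00978). Timeless, of the fork protection complex, fell by 0.23 (adjusted p = 0.00636). Without stress female replicate 1 only 4 of the 46 were called.

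Of 29 genes of E2F and G1-S control 6 rose and 4 fell, where 12.8% of all tested genes were called higher and 13.4% lower, so the lower calls were near the share of all genes. The kinase inhibitors Cdkn1c and Cdkn1a, which hold cells in G1, rose by 0.69 ± 0.13 and 0.33 ± 0.06 (limma adjusted p of 0.000804 and 0.00105), whereas the inhibitor Cdkn1b fell by 0.27 (0.00259). Cdkn1c went from 819 ± 89.4 to 1365 ± 473 normalized counts (SD, n = 6 each). Among the E2F genes, E2f2 rose by 0.46 ± 0.11 (0.00466). E2f4 and E2f5 fell by 0.25 and 0.28, and Tfdp2, an E2F partner, fell by 0.21 (0.0218, 0.0315 and 0.0396). From control to stress, mean normalized counts of E2f1, E2f3 and E2f6 went from 619 to 634, 719 to 694 and 700 to 620. Those of E2f7 and E2f8 went from 46.9 to 69.5 and 92.4 to 114.

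Mitosis genes, the most like list, had 23 of 30 members higher and none lower (76.7%), at a median of 0.39 (log2 fold change) against 0.26 for the replication genes. The difference between the lists was not tested. Racgap1, needed for the last division of the cell body, rose by 0.58 ± 0.06 (limma adjusted p = 2.90e-06), the kinase gene Aurkb by 0.75 ± 0.12, Cenpf of the kinetochore by 0.54 ± 0.09 and Top2a, which untangles chromosomes, by 0.52 ± 0.09. Their promoters differed in letters: CHR elements were in 73.1% of 26 mitosis genes with a window and in 12.1% of the 33 replication genes, while an E2F octamer was in 3.85% and 39.4%.

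**Figure D5:**
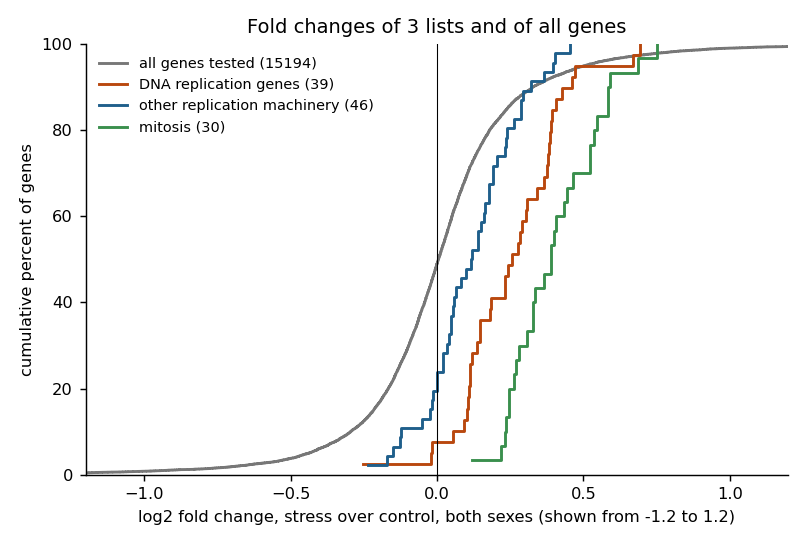
Cumulative percent of genes (y axis) at or below each log2 fold change of stress over control (x axis, shown from -1.2 to 1.2) for all 15194 tested genes and 3 lists. Medians are 0.01 for all genes, 0.12 for other replication machinery, 0.26 for DNA replication genes and 0.39 for mitosis genes.

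Markers of red blood cells and satellite glia moved with treatment beside these results. Of the 14 red blood cell markers measured, 11 rose and none fell (median log2 fold change 1.59). They summed to 2886 to 5455 normalized counts in control and 4759 to 13431 in stress libraries. Hbb-bs, Hba-a2, Epb42 and Rhag were at 0 in some libraries and no marker in all, and the globin genes come in near-identical copies whose reads can be split. Klf1, the erythroid transcription factor of nucleated precursors, was low throughout, at 1.13 to 3.17 in control and 4.71 to 15.3 in stress libraries. The mean log2 deviation of these markers was -0.86 to -0.28 in control and -0.32 to 1.77 in stress. Stress female replicate 3, at -0.32, was in the control range, and its replication score of 0.04 was above every control library. That replication score was the lowest of the stress females. From the 10 markers other than globins, the same library scored -0.19, above every control library. With the score of all 14 markers as a covariate 1 member, Pole, was called (0.59 ± 0.15, limma adjusted p = 0.0280). At that setting 3.53% of all genes were called higher, and the median of the members was 0.09. The mitosis median was then 0.35, with 2 of 30 genes called. The members' median SE rose from 0.11 to 0.16. With a score of the 10 markers other than globins, no member was called by limma (0.579% of genes were higher), the members' median was 0.04 and the median SE 0.22. That score, chosen after the data were seen, did not overlap between treatments (-1.06 to -0.64 in control and -0.19 to 1.78 in stress). Both scores were higher in stress, so a covariate also takes up part of the treatment. The part of red blood cells and their precursors in the rise of the members was not tested.

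Satellite glia markers had 6 of 10 lower and none higher, with sums of 77588 to 86746 in control and 57227 to 62357 normalized counts in stress, and no overlap. Apoe, abundant in these sums, went from a mean of 38474 to 23146. The median log2 fold change of the 10 was -0.21, with 1 above 0 and 9 below. Their mean log2 deviations did not overlap either, at 0.0693 to 0.1838 in control and -0.217 to -0.0566 in stress. Fibroblast markers had 4 of 8 lower and 1 higher. Sensory neuron markers had 4 of 10 lower and 2 higher, with sums of 258016 to 273221 in control and 224334 to 250999 in stress. The abundant marker Nefh went from a mean of 65610 to 45091. The median log2 fold change of the neuron markers was -0.003, with 5 above 0 and 5 below. Their mean log2 deviations overlapped, at 0.0159 to 0.0973 in control and -0.1145 to 0.0196 in stress. Schwann cell and endothelial markers had 1 lower each, of 10 and 8, no more than the 13.4% of all tested genes called lower. Of 8 macrophage markers none was called at the limma threshold and 1 had an unadjusted p under 0.05. Of the 6 tested markers of neutrophils and their precursors, 1 was higher and none lower (16.7% higher, where 12.8% of all tested genes were). This was Mpo, at 0 to 4.42 normalized counts in control and 9.00 to 28.2 in stress libraries. Of the 6 log2 fold changes, 3 were above 0 and 3 below. The part of these cells in the members' values was not tested.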

How the data were processed

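Groups and replicate numbers came from the sample labels. A directional kit made the libraries, per the labels' protocols. The submitters' processing notes name STAR, Salmon, DESeq2 and mm10 without versions or roles. Annotation, strand setting of the counting and any filter by the authors: not given in the sources used here. For each gene the deposited table held a normalized signal per library, here called normalized count, which the authors had scaled between libraries. It further held the mean of these columns, and the authors' own comparison as a deposited log2 fold change, test score and p-values. Low values fell near whole steps too seldom to recover reads: within 0.1 of a step lay 61.3% to 86.6% of values up to 12 in 11 libraries and 28.9% in stress female replicate 2. No count model was therefore used. That share was 72.5% to 86.6% in control and 28.9% to 65.8% in stress libraries, with no overlap. The reason was not tested, and a technical difference between the libraries cannot be told apart from treatment here.

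The tests were run by limma 3.58.1 (R 4.3.3) after adding a pseudocount of 1 and taking log2, which understates the change of low genes. A single model held the mean of each of the 4 groups, and the prior variance followed mean expression. It gave the stress effect in both sexes, in each sex, the difference of these, and males against females. The steps were tested on simulated data. Members and lists were chosen with earlier results of these data known. Values in every library are given for the member of lowest p in each of 9 roles, the 3 largest rises, the 3 lowest fold changes and the lowest p for a sex difference. Of other lists, the 4 genes of lowest p and those called against the majority are named. Coordinates and exon lengths are from GENCODE M21. Alternatives covered pseudocount, filter, scaling, variance prior, weights, model, replicate block, red blood cell scores and leaving out each library.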

Additional observations from a re-analysis of the deposited data

Results flagged for a closer look

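In 2 of 84 groups of 6 libraries (each member in control and in stress, and the replication, mitosis and red blood cell scores) 1 library stood apart by Dixon's ratio, the gap to its neighbour over the range, with a limit of 0.625. Chance flags about 1 in 20 such groups. Mcm2 was at 413 normalized counts in control male replicate 1 and at 340 in the next highest control library, a ratio of 0.666. Mcm7 was at 232 in control female replicate 1 and at 283 in the next lowest control library, a ratio of 0.675. No member's stress effect differed between the sexes at the limma threshold.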

How the results depend on the processing

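Pseudocount, filter, scaling, variance prior, array weights, an additive model and a replicate block kept the number of members called over both sexes between 14 and 18, against 16. Array weights gave 13 in females, against 8. With the red blood cell score as a covariate, the members called were 1 (both sexes), 0 (females) and 1 (males), with 1090 of all genes, 0 of other replication machinery, 0 of E2F and G1-S control and 2 of mitosis, and a members' median of 0.0861. With the score lacking globins, chosen after the data were seen, these were 0, 0, 0, 168, 0, 0, 0 and 0.0372. The first score turned the log2 fold changes of Orc1 (-0.43), Mcm10 (-0.17), Gins2 (-0.0779), Gins3 (-0.0195), Pola2 (-0.0406), Pole2 (0.0221), Pcna (-0.0543), Rfc3 (-0.13), Rfc4 (-0.0078), Rpa2 (-0.0907) and Lig1 (-0.0542). The other turned Orc1 (-1.07), Orc6 (-0.0059), Mcm2 (-0.0926), Mcm3 (-0.18), Mcm5 (-0.0518), Mcm6 (-0.0241), Mcm10 (-0.27), Cdc45 (-0.11), Gins2 (-0.057), Gins3 (-0.13), Pola2 (-0.13), Pole2 (0.14), Pcna (-0.13), Rfc3 (-0.31), Rfc4 (-0.0321), Rpa2 (-0.20), Lig1 (-0.0979) and Rrm2 (-0.13). Array weights turned Rfc1 (0.0227). The cause was not tested in any of these.

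Leaving out 1 library at a time gave 11 to 18 members for both sexes, 2 to 10 for females, 3 to 6 for males, 3155 to 3959 of all genes, 4 to 9 of other machinery, 7 to 10 of E2F and G1-S control, 18 to 23 of mitosis, and a median of 0.23 to 0.30. Log2 fold changes crossed 0 in Gins1 (-0.0291 to 0.29), Gins2 (-0.0639 to 0.16), Rfc1 (-0.0765 to 0.061) and Rpa3 (-0.0845 to 0.0407). The replicate block gave 17 members for both sexes, 10 for females, 8 for males and 4133 genes. Chaf1a was then not called (adjusted p = 0.0567). Deviations of same-numbered libraries correlated at -0.0151 to 0.0395 in females and 0.0644 to 0.148 in males, and not every library correlated best with its own number, so the numbers were not taken as pairs. The additive model gives no value for single sexes. Depth could not be estimated in stress female replicate 2, and Orc1, at 4.50 to 14.8 normalized counts, is limited by low counts.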
